A study of Homo sapiens with 6 samples.

Results

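The 10 genes described here encode receptor tyrosine kinases of the ERBB family (EGFR, ERBB2, ERBB3 and ERBB4) and the FGFR family (FGFR1, FGFR2, FGFR3 and FGFR4), together with MET and RET. They were chosen by name, as receptors that are candidates for bypassing CDK4/6 inhibition, and were found by Ensembl identifier among the 60656 genes of the count table. RNA had been sequenced from parental ZR-75-1 cells, an established oestrogen receptor-positive human breast cancer line with intact RB1, grown for 4 days with DMSO as the vehicle control or with 500 nM abemaciclib, a CDK4/6 inhibitor. Each treatment had 3 libraries of 1 line in culture, so the levels are those of this line and not of other breast cancers. The question was which of these receptors differed in mRNA level between the treatments.

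Receptor tyrosine kinases span the plasma membrane. A ligand brings receptor chains together, the kinase domains phosphorylate tyrosines on each other's tails, and adaptors bound there pass the signal to RAS and the MAP kinases and to PI3 kinase. The ERBB receptors pair with each other: EGFR and ERBB4 bind ligand and have active kinases, ERBB2 has no known ligand of its own, and ERBB3 has little kinase activity and signals through its partners. FGFRs bind fibroblast growth factors with heparan sulphate or a Klotho protein, MET binds hepatocyte growth factor, and RET binds GDNF family ligands through GFRα co-receptors. In breast cancer, ERBB2 amplification defines a clinical class, FGFR1 amplification occurs in luminal tumours, and RET and its co-receptor GFRA1 are known oestrogen-responsive genes.

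The libraries held between 3317860 and 4013156 counts on genes. A count of 0 allows up to 3 counts, or 0.74 to 0.909 CPM (counts relative to the library total, with TMM factors), and this limit covers counting error only. Abemaciclib replicate 3 stood apart: counts of the pairs that include it differed by 6.86 and 7.31 times the sampling noise (chi-square over its degrees of freedom), against 3.45 for abemaciclib replicates 1 and 2 and 2.82 to 4.16 among DMSO libraries. The 8 luminal markers, among them ESR1, GATA3 and KRT8, summed to 7478 to 7935 CPM with DMSO and 8520 to 9512 CPM with abemaciclib, as the label of the line has it. Within that list ESR1 and KRT19 rose and KRT18 fell. The 6 basal and myoepithelial markers summed to 7.54 to 15.4 CPM and 0.493 to 2.97 CPM, with KRT5, KRT14 and TP63 at 0 in all libraries. Most of that sum was ACTA2, which lay between 6.09 and 13.3 CPM with DMSO and fell to between 0.493 and 1.82 CPM with abemaciclib (edgeR, adjusted P = 0.000191) and overlaps an antisense gene. The 9 stromal, endothelial and immune markers summed to 11.6 to 16.1 CPM and 10.1 to 15.9 CPM, with VIM, COL1A2, PECAM1, PTPRC and CD3E at 0 in all libraries. Most of this sum was COL1A1, at 10.4 to 15.75 CPM with DMSO and 10.1 to 15.4 CPM with abemaciclib.

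Each read of these libraries comes from the 3′ end of a polyadenylated transcript, so counts do not scale with transcript length. On that ground CPM of different genes are set side by side, but they also depend on how reads at a 3′ end were assigned to a gene, which the values of ERBB2 and NRAS given further on bear on. The 3′ end of each canonical transcript is therefore the place where reads of these genes are collected. The last 30 bases are shown for 5 receptors that had enough counts for a test, 5′ to 3′ on the strand of the gene in GRCh38, with a polyadenylation signal in capitals (AATAAA or ATTAAA, searched in the last 30 bases on the strand of the gene).
FGFR4: ttttgaAATAAAgctctgtgtgcctgggtc
FGFR3: ttccgaaaAATAAAgacacctggttgctaa
ERBB2: tgtccatttgcaaatatattttggaaaaca
ERBB3: tctgAATAAAaatgccaaagttttttttca
ERBB4: tgaaattcAATAAAatatgaaacaaacgtt
These stretches lie at chr5:177098115-177098144 (FGFR4), chr4:1808838-1808867 (FGFR3), chr17:39728629-39728658 (ERBB2), chr12:56103476-56103505 (ERBB3) and, on the minus strand, chr2:211375717-211375746 (ERBB4). All lie in the 3′ UTR of the last exon. ERBB2 has neither signal in this window, and 69.6% of 20046 protein-coding canonical transcripts have one. The ERBB2 end also overlaps an exon of MIEN1 on the opposite strand, and since no source used here states whether the counting used strand, reads of ERBB2 and MIEN1 cannot be told apart there. The other receptors have no exon of another gene at their 3′ end.

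Among the 10 receptors, RET rose and FGFR4 and FGFR1 fell with abemaciclib, while ERBB2, ERBB3, ERBB4 and FGFR3 did not pass the test and EGFR, MET and FGFR2 had too few counts to be tested. RET rose 3.25-fold from a low level, FGFR4 fell 1.76-fold and FGFR1 fell 1.47-fold. Genes were tested with the quasi-likelihood method of edgeR, and P values of the 10863 genes with enough counts were adjusted by the Benjamini–Hochberg procedure, with a threshold of 0.05. Of the 7 receptors tested, 1 was higher, and 12.5% of all genes tested were. A further 2 of the 7 were lower, against 13.3% of all genes tested. The abemaciclib libraries lay above every DMSO library for 2 of the 7 (RET and FGFR3, 19.1% of all genes tested) and below every DMSO library for 2 (FGFR1 and FGFR4, 20.1%). With 7 receptors tested these counts describe single genes, and nothing particular to the list was read from them. The median log2 fold change was 0.25 over the 7 and 0.0 over all genes tested. In RNA from whole cultures, a lower level in every cell and fewer cells with the transcript cannot be told apart.

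**Figure D1:**
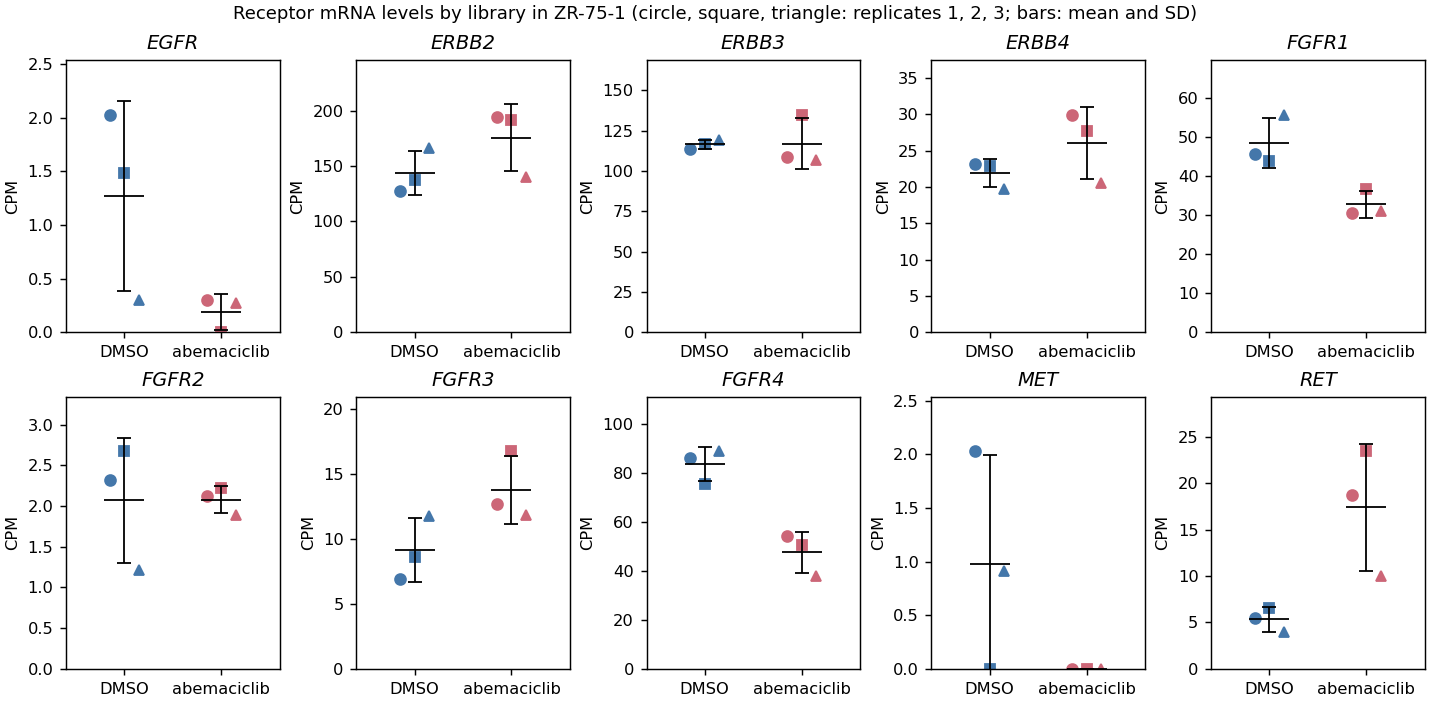
Level of each receptor in CPM (vertical axes, each from 0 and on its own scale) in the 3 DMSO libraries (blue) and the 3 abemaciclib libraries (red), with circles, squares and triangles for replicates 1, 2 and 3 and bars for the mean and SD. The groups do not overlap for RET and FGFR3 (abemaciclib above) or for FGFR1 and FGFR4 (abemaciclib below), and MET is at 0 in all 3 abemaciclib libraries.

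With DMSO, ERBB2 was the most abundant of the receptors at 144 ± 19.9 CPM (SD, n = 3), followed by ERBB3 at 116 ± 2.67 CPM and FGFR4 at 83.6 ± 6.99 CPM. ERBB2 lay above 89.2% of all genes tested at this level. Its count may have gained or lost reads at the overlap with MIEN1, so its place above ERBB3 is uncertain. FGFR1 came next, then ERBB4, FGFR3 and RET, and each of these neighbours in the order differed without overlap between libraries. FGFR2, EGFR and MET were at 0.98 to 2.07 CPM on average, and their libraries overlapped. With abemaciclib the first 5 kept their order: ERBB2 was at 175 ± 30.2 CPM, ERBB3 at 117 ± 15.8 CPM and FGFR4 at 47.6 ± 8.43 CPM. RET passed FGFR3 to take place 6, although the libraries of ERBB4, RET and FGFR3 overlapped from one to the next. The level of RET lay above 11.7% of the genes tested with DMSO and above 41.0% with abemaciclib.

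RET (ENSG00000165731, chr10:43077064-43130351, plus strand) is the receptor for GDNF family ligands. Its counts were 19, 22 and 13 in the DMSO libraries and 62, 95 and 37 in the abemaciclib libraries, or 5.51, 6.54 and 3.94 CPM against 18.8, 23.4 and 10.0 CPM. The abemaciclib libraries all lay above the DMSO libraries but spread widely, with replicate 3 the lowest. The mean rose from 5.33 ± 1.31 to 17.4 ± 6.82 CPM (SD, n = 3). On the log2 scale the fold change was 1.70, with an SE of 0.34 and a 95% interval of 1.00 to 2.40 (edgeR, adjusted P = 0.000392). A total of 88 of the genes tested (0.81%) had a larger log2 fold change. RET stayed past the threshold in each fit without 1 library, with log2 fold changes of 1.42 to 1.98 and adjusted P values up to 0.0106. The value of 1.98 was that without abemaciclib replicate 3.

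The RefSeq promoter of the first RET start is shown because RET had the largest rise of the receptors, with 250 bases before and 50 bases after the start site, at chr10:43076819-43077118 on the plus strand of GRCh38.p14 and with a match to the AP-2 motif in capitals.
RET promoter: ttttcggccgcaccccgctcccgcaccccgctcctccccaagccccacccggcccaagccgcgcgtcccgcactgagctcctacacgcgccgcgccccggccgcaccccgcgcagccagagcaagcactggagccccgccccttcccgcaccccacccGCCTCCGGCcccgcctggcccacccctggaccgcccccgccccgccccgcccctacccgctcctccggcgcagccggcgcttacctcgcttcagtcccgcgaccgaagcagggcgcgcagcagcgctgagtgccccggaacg
Its GC content is 78.7%, and the match begins 92 bases before the start site. The promoter of the first FGFR4 start, at chr5:177086665-177086964 on the plus strand, is shown for the largest fall, and it has the same GC content of 78.7% and no match. A second RefSeq start of each gene turns this around: the window of the second FGFR4 start has an AP-2 match, and that of the second RET start has none.
FGFR4 promoter: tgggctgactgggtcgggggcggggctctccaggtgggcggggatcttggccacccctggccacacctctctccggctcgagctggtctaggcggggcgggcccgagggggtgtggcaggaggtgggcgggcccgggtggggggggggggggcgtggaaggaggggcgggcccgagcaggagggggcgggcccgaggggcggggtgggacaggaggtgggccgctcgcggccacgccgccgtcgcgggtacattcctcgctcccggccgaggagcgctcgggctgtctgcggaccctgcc
Promoters of 8 of the 10 receptors were searched, not those of ERBB3 or FGFR1. The motifs were searched on both strands. The AP-2 motif (GCCNNNGGC, where N is any base) occurs in 23.2% of the 35116 RefSeq promoters of this length. These promoters were not matched to the RET window for GC content. The E2F motifs TTTCGCGC and TTTGGCGC occur in 0.515% and 0.652%, and the cell cycle homology region TTTGAA in 15.2%. The oestrogen response element (GGTCANNNTGACC) occurs in 0.057%, its half-site AGGTCA in 13.8% and the forkhead motif TGTTTAC in 3.42%. The half-site lies within the full element with 1 base before it open, so the motifs can overlap. A match is a run of letters in this window and not a measured binding site.

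FGFR4 (ENSG00000160867, chr5:177086905-177098144, plus strand) is the FGFR that binds FGF19 with the co-receptor KLB in liver. It stood at 86.1, 75.7 and 89.1 CPM in the DMSO libraries and at 54.2, 50.6 and 38.1 CPM in the abemaciclib libraries. The highest abemaciclib library was below the lowest DMSO library. The mean fell from 83.6 ± 6.99 to 47.6 ± 8.43 CPM (SD, n = 3). This was a log2 fold change of −0.81, with an SE of 0.15 and a 95% interval of −1.12 to −0.51 (edgeR, adjusted P = 0.000105). A larger fall was measured in 9.21% of the genes tested. The call held in each fit without 1 library, with log2 fold changes of −0.91 to −0.68.

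FGFR1 (ENSG00000077782, chr8:38400215-38468834, minus strand) binds many FGFs and is the FGFR most often amplified in luminal breast cancer. It stood at 45.5, 43.96 and 55.7 CPM with DMSO and at 30.6, 36.8 and 31.1 CPM with abemaciclib. The groups did not overlap, and DMSO replicate 3 was the highest library. The mean fell from 48.4 ± 6.39 to 32.8 ± 3.44 CPM (SD, n = 3). Its log2 fold change was −0.56, with an SE of 0.17 and a 95% interval of −0.90 to −0.21 (edgeR, adjusted P = 0.0142). The call was lost without DMSO replicate 3, at a log2 fold change of −0.45 and an adjusted P of 0.0903 by the same test. A larger fall was measured in 15.3% of the genes tested.

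FGFR3 (ENSG00000068078, chr4:1793293-1808872, plus strand), the FGFR mutated in bladder cancer and achondroplasia, stood at 6.96, 8.61 and 11.8 CPM with DMSO and at 12.7, 16.8 and 11.9 CPM with abemaciclib. The groups did not overlap, but the lowest abemaciclib library and the highest DMSO library lay side by side. Its log2 fold change was 0.60 with an SE of 0.30 and a 95% interval of −0.02 to 1.22 (edgeR, adjusted P = 0.151). FGFR2 (ENSG00000066468, chr10:121478332-121598458, minus strand), the FGFR tied to breast cancer risk by common variants near the gene, had 8, 9 and 4 counts with DMSO and 7, 9 and 7 counts with abemaciclib. Pooled over libraries, FGFR2 had 21 counts against 23, and the ratio of DMSO to abemaciclib in CPM was 0.998, with an exact interval of 0.525 to 1.89 that covers counting error only.

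The FGFR family total was lower in every abemaciclib library. Summed over FGFR1, FGFR2, FGFR3 and FGFR4, it was 141, 131 and 158 CPM in the DMSO libraries and 99.5, 106 and 83.0 CPM in the abemaciclib libraries. All abemaciclib libraries were below all DMSO libraries, and the ratio of the means was 0.672 (two-sided exact permutation test, P = 0.1). An exact permutation test of 3 against 3 libraries cannot go below 0.1, so 0.05 is out of reach for it. The members' shares went different ways. Shares of a family add up to the whole in each library, so they and their P values are tied to each other. FGFR4 made up 61.1%, 57.8% and 56.4% of the family's level with DMSO and 54.4%, 47.6% and 45.9% with abemaciclib. FGFR3 made up 4.94%, 6.58% and 7.49% with DMSO and 12.8%, 15.8% and 14.3% with abemaciclib. Neither share overlapped between the groups, and each gave the same smallest exact permutation P of 0.1. FGFR1 held 33.7% ± 1.51 with DMSO and 34.2% ± 3.39 with abemaciclib (SD, n = 3, exact permutation P = 0.9), with overlapping libraries. FGFR2 held 1.48% ± 0.652 and 2.17% ± 0.101 (exact permutation P = 0.1), on 4 to 9 counts a library. Over the 10 sums and shares tested in both families, no value passes 0.05 before or after adjustment.

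**Figure D2:**
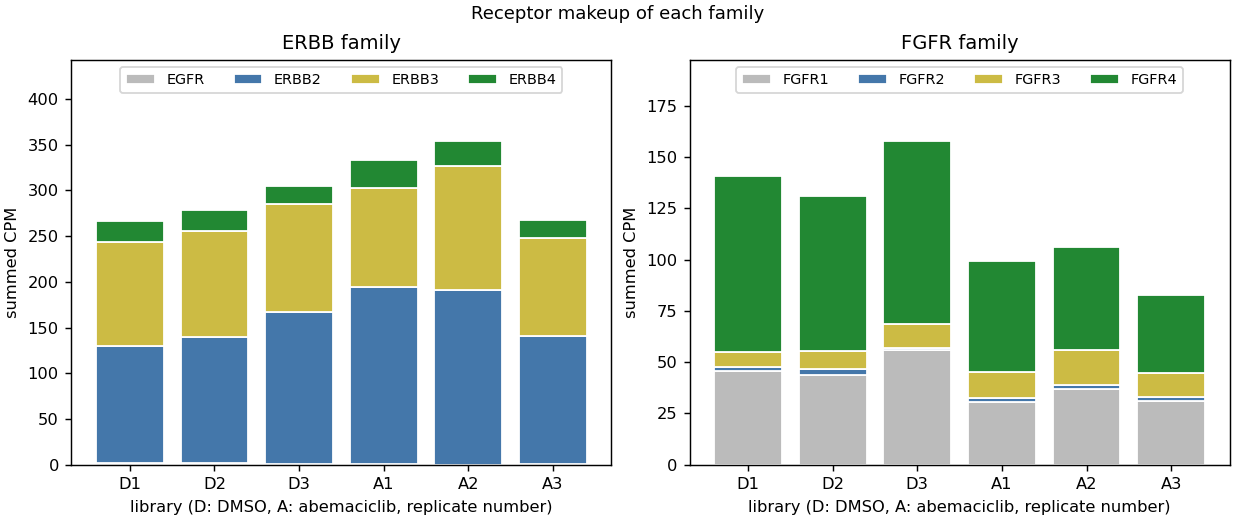
Summed level in CPM (vertical axes, from 0) of the ERBB family (left) and the FGFR family (right) in each library, D for DMSO and A for abemaciclib with the replicate number, with the coloured parts of a bar for the receptors. The FGFR bars of the abemaciclib libraries (83.0 to 106 CPM) are all shorter than those of the DMSO libraries (131 to 158 CPM), and the ERBB bars overlap.

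ERBB2 (ENSG00000141736, chr17:39687914-39730426, plus strand), the partner that the other ERBB receptors favour, stood at 128, 138 and 166 CPM with DMSO and at 194, 191 and 141 CPM with abemaciclib. The groups overlapped through DMSO replicate 3 and abemaciclib replicate 3. The log2 fold change was 0.28 with an SE of 0.13 and a 95% interval of 0.03 to 0.54, and it did not pass the test (edgeR, adjusted P = 0.0963). It passed without either of those libraries, at 0.40 without DMSO replicate 3 (adjusted P = 0.0429) and 0.42 without abemaciclib replicate 3 (adjusted P = 0.00143). MIEN1, whose exon overlaps the ERBB2 end, stood at 76.0, 63.6 and 77.2 CPM with DMSO and at 64.1, 59.7 and 57.8 CPM with abemaciclib.

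ERBB3 (ENSG00000065361, chr12:56076799-56103505, plus strand), the neuregulin receptor that recruits PI3 kinase, stood at 114, 116 and 119 CPM with DMSO and at 109, 135 and 107 CPM with abemaciclib. The DMSO libraries lay within the range of the abemaciclib libraries. The log2 fold change was 0.01 with a 95% interval of −0.23 to 0.25 (edgeR, adjusted P = 0.975), and its sign changed with the scaling and with the library left out. ERBB4 (ENSG00000178568, chr2:211375717-212538841, minus strand), the other neuregulin receptor, stood at 23.2, 22.9 and 19.7 CPM with DMSO and at 29.95, 27.6 and 20.5 CPM with abemaciclib. Its log2 fold change was 0.25 with a 95% interval of −0.18 to 0.68 (edgeR, adjusted P = 0.436), with overlapping groups.

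EGFR (ENSG00000146648, chr7:55019017-55211628, plus strand), the receptor for EGF and amphiregulin, had 7, 5 and 1 counts with DMSO and 1, 0 and 1 counts with abemaciclib. It had too few counts for the test. Pooled over libraries, EGFR had 13 counts against 2, and the ratio of DMSO to abemaciclib in CPM was 7.11, with an exact interval of 1.61 to 64.9 that covers counting error only and not the spread between libraries. With no filter on low counts, EGFR did not pass edgeR's test (adjusted P = 0.33).

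The ERBB family total overlapped between the groups. It was 267, 279 and 305 CPM with DMSO and 333, 354 and 268 CPM with abemaciclib (two-sided exact permutation test, P = 0.3), a test that cannot go below 0.1 here. The overlap came from abemaciclib replicate 3, and the other abemaciclib libraries lay above all DMSO libraries. ERBB2 made up 50.6% ± 3.41 of it with DMSO and 54.9% ± 3.04 with abemaciclib (SD, n = 3, exact permutation P = 0.3). The shares of ERBB3 were 41.1% ± 1.90 and 36.8% ± 3.77 (exact permutation P = 0.2). ERBB4 held 7.78% ± 1.18 and 8.15% ± 0.730 (exact permutation P = 0.8). The remaining share, that of EGFR, was 0.464% ± 0.336 and 0.0639% ± 0.0555 (exact permutation P = 0.2). All 4 shares overlapped between the groups.

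MET (ENSG00000105976, chr7:116672196-116798377, plus strand), the hepatocyte growth factor receptor, had 7, 0 and 3 counts with DMSO and 0 counts in each abemaciclib library. One DMSO library was therefore at 0 as well, and MET was too low for the test. With no filter on low counts, MET did not pass edgeR's test (adjusted P = 0.125). Low counts in this table need care: NRAS, which cells of nearly every kind express, had between 0 and 2 counts a library.

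**Figure D3:**
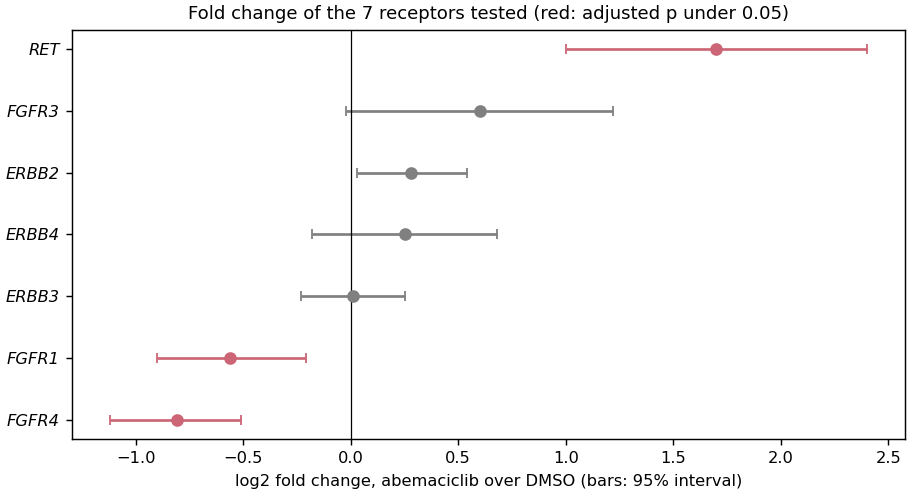
Log2 fold change of abemaciclib over DMSO (horizontal axis) with its 95% interval for the 7 receptors tested, in red where the adjusted P was under 0.05. RET lies at 1.70, FGFR1 at −0.56 and FGFR4 at −0.81, and the ERBB3 interval of −0.23 to 0.25 surrounds 0.

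The ligands of these receptors were mostly at low counts. Of 11 ERBB ligands, 3 were tested and 0 were called in either direction, beside 12.5% higher and 13.3% lower of all genes tested. Amphiregulin (AREG), an EGFR ligand and oestrogen-responsive gene, stood at 61.8, 57.6 and 65.7 CPM with DMSO and at 44.2, 46.9 and 57.6 CPM with abemaciclib, a log2 fold change of −0.32 (edgeR, adjusted P = 0.122) that passed without abemaciclib replicate 3 (adjusted P = 0.0397). EGF itself was at 2.97 to 8.12 CPM with DMSO and 7.40 to 10.9 CPM with abemaciclib (log2 fold change 0.91, edgeR, adjusted P = 0.108) and passed without DMSO replicate 1, at 1.52 (adjusted P = 0.0254). For TGFA the log2 value was 0.28 (edgeR, adjusted P = 0.747). The neuregulins NRG1, NRG2, NRG3 and NRG4, ligands of ERBB3 or ERBB4 or of both, had at most 5 counts in any library. Of 18 FGF ligands, 0 had enough counts for the test and 12 were at 0 in all 6 libraries.

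Of 6 ligands of MET and RET, 3 were tested, 0 rose and 1 fell, beside 12.5% and 13.3% of all genes tested. GDF15, the stress-responsive ligand that reaches RET through the co-receptor GFRAL, fell from 86.7, 92.7 and 83.6 CPM to 16.0, 18.8 and 10.5 CPM, without overlap (log2 fold change −2.53, SE 0.18, edgeR, adjusted P = 6.26e-12). GFRAL had 0 counts in all libraries, as had HGF, the ligand of MET, and GDNF. The RET ligand neurturin (NRTN) was at −1.21 for its log2 fold change (edgeR, adjusted P = 0.13) and passed without abemaciclib replicate 1, at −2.17 (adjusted P = 0.0292). Artemin (ARTN), another RET ligand, had 6, 5 and 2 counts with DMSO and 9, 20 and 12 with abemaciclib, and was not tested.

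Of 13 co-receptors, 7 were tested, 4 fell (13.3% of all genes tested did) and 0 rose (12.5% did), with a median log2 fold change of −0.87. NRP1, a co-receptor for several growth factors, fell by 2.27 on the log2 scale (SE 0.49, edgeR, adjusted P = 0.000906). Without abemaciclib replicate 1 its log2 fold change was −2.98. The heparan sulphate carriers SDC1 and GPC1, which present FGFs to their receptors, fell by 1.37 (adjusted P = 0.000467) and 0.87 (adjusted P = 0.00203). SDC4, a carrier of the same kind with a higher level, stood at 194 to 213 CPM with DMSO and 198 to 232 CPM with abemaciclib (log2 fold change 0.09, edgeR, adjusted P = 0.574). CD44, which can act as a MET co-receptor, fell by 1.18 (adjusted P = 0.0185) and lost the call with DESeq2 (adjusted P = 0.0522) and without DMSO replicate 1 (adjusted P = 0.123), DMSO replicate 3 (adjusted P = 0.0678) or abemaciclib replicate 3 (adjusted P = 0.0525). GFRA1, the GDNF co-receptor of RET, stood at 43.8, 33.0 and 36.3 CPM with DMSO and at 27.5, 28.6 and 25.1 CPM with abemaciclib. Every abemaciclib library of GFRA1 was below every DMSO library, and its log2 fold change of −0.48 did not pass the test (edgeR, adjusted P = 0.0546), though it did with total counts as the only scaling (adjusted P = 0.0495). RET and its detected GFRα partner had fold changes of opposite sign. GFRA2, GFRA3 and GFRA4 were at 0 in all libraries.

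Of 11 genes for the release and activation of ligands, 8 were tested, 4 rose and 0 fell, beside 12.5% and 13.3% of all genes tested, with a median of 0.32. FURIN, a protease that cuts proproteins, had a log2 rise of 0.66 (edgeR, adjusted P = 0.0118). SPINT1 and SPINT2, inhibitors of the proteases that activate hepatocyte growth factor, rose by 0.57 (adjusted P = 0.0047) and 0.33 (adjusted P = 0.0105), and their protease target ST14 rose by 0.32 (adjusted P = 0.0419). The sheddase ADAM10, which releases ERBB ligands, had a fold change of 0.11 on the log2 scale (edgeR, adjusted P = 0.724). FURIN lost the call without DMSO replicate 1 (adjusted P = 0.0511), and SPINT2 without DMSO replicate 2 (adjusted P = 0.0508) or DMSO replicate 3 (adjusted P = 0.0938). The SPINT2 end also overlaps an exon of another gene on the opposite strand. ST14 missed the threshold in 8 of 12 alternatives, at adjusted P values up to 0.208.

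Behind the receptors, 16 of 19 adaptor and RAS genes were tested, of which 1 rose and 2 fell, beside 12.5% and 13.3% of all genes tested, with a median of 0.16. FRS2, the docking protein of FGFRs and RET, rose from 78.6, 93.0 and 98.7 CPM to 131, 133 and 125 CPM, without overlap (log2 fold change 0.53, edgeR, adjusted P = 0.00121). GRB7, an adaptor of ERBB2 and RET, fell from 54.2, 46.9 and 63.0 CPM to 16.3, 21.0 and 14.9 CPM (log2 fold change −1.65, SE 0.19, edgeR, adjusted P = 9.82e-08). HRAS fell by 0.73 (adjusted P = 0.048), but its 3′ end overlaps an antisense gene and it missed the threshold in 7 of 12 alternatives, at adjusted P values up to 0.201. The adaptor GRB2, which all these receptors share, stood at 154 to 165 CPM with DMSO and 161 to 185 CPM with abemaciclib (edgeR, adjusted P = 0.558).

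Of 16 negative regulators, 13 were tested, 4 rose and 0 fell, beside 12.5% and 13.3% of all genes tested, with a median of 0.19. With no filter on low counts, 5 rose. That fit called 1335 genes higher and 1429 lower over all genes with any count, so the shares above do not apply to it. SH3KBP1, which links the ubiquitin ligase CBL to receptor endocytosis, rose from 26.4, 28.8 and 39.1 CPM to 64.1, 74.8 and 76.7 CPM (log2 fold change 1.20, SE 0.16, edgeR, adjusted P = 1.8e-06). CBL itself rose by 0.64 (adjusted P = 0.0217), the phosphatase PTPN1 by 0.39 (adjusted P = 0.00509) and the receptor phosphatase PTPRF by 0.31 (adjusted P = 0.0251). CBL lost the call with DESeq2 (adjusted P = 0.0608) and without DMSO replicate 2 (0.0701), DMSO replicate 3 (0.0812) or abemaciclib replicate 2 (0.108). PTPRF missed the threshold in 5 of 12 alternatives, at adjusted P values up to 0.115. ERRFI1, an inhibitor of the EGFR kinase, differed by 0.72 on the log2 scale (edgeR, adjusted P = 0.175).

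Genes beside ERBB2 and FGFR1, which share their amplicons in breast tumours, held genes called in both directions, called in 1 direction or not called. Of the 7 neighbours of ERBB2, 4 were tested, of which 1 rose and 1 fell, beside 12.5% and 13.3% of all genes tested. PGAP3 had a log2 rise of 1.00 (adjusted P = 0.0143), and GRB7 fell as given above. PGAP3 lost the call without DMSO replicate 2 (adjusted P = 0.0541), DMSO replicate 3 (0.0927) or abemaciclib replicate 2 (0.0516). All 8 neighbours of FGFR1 were tested, 0 rose and 2 fell, beside 12.5% and 13.3% of all genes tested, with a median of 0.01. TACC1 fell from 76.6, 71.0 and 75.4 CPM to 32.4, 37.3 and 34.3 CPM (log2 fold change −1.10, edgeR, adjusted P = 1.14e-06). ASH2L fell by 0.43 (adjusted P = 0.0487) and missed the threshold in 9 of 12 alternatives. NSD3, a chromatin methyltransferase gene on the same arm, stood at 310 to 344 CPM with DMSO and 289 to 315 CPM with abemaciclib, a log2 fold change of −0.10 (adjusted P = 0.509).

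Among the 48 other receptor tyrosine kinases, 19 were tested, of which 4 rose and 5 fell, beside 12.5% and 13.3% of all genes tested, with a median of 0.23. With no filter on low counts, 5 rose and 7 fell. In that fit, over all genes with any count, 1335 rose and 1429 fell, so the shares above do not apply to it. NTRK2, a neurotrophin receptor, had a log2 rise of 1.50 (edgeR, adjusted P = 0.00331), from 3.19, 5.64 and 3.94 CPM to 9.38, 11.6 and 15.1 CPM. The log2 fold change of RET was 1.70, and the difference between them was not tested. AATK rose by 1.15 (adjusted P = 0.0384) and FLT4 by 0.74 (adjusted P = 0.0184). DDR1 rose from 149, 154 and 156 CPM to 208, 229 and 266 CPM, without overlap (log2 fold change 0.62, edgeR, adjusted P = 6.69e-05). The AATK end overlaps an exon of BAIAP2 on the opposite strand, AATK missed the threshold in 6 of 12 alternatives and FLT4 in 4 of 12. EPHB3 fell by 1.90 (adjusted P = 8.84e-05), PTK7 by 1.81 (adjusted P = 1.27e-05) and ROR2 by 1.39 (adjusted P = 0.0047), and these 3 held their calls in every alternative run.

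The genes most like each called receptor were those with the smallest root mean square difference of centred log2 CPM over the 6 libraries, among tested genes within 2-fold of its mean CPM. For RET these were ASIC2 (0.085), TFPI2 (0.217) and RASA4CP (0.246) of 3741 genes compared. RASA4CP is a pseudogene with near-identical copies, so its count is uncertain. For FGFR4 they were NSUN5 (0.0745), SCRIB (0.106) and SNRPA (0.107) of 3269 genes. For FGFR1 they were FAM98B (0.0495), NELFCD (0.0599) and REPS1 (0.078) of 3956 genes. The distance covers treatment and library differences together and was not tested.

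**Figure D4:**
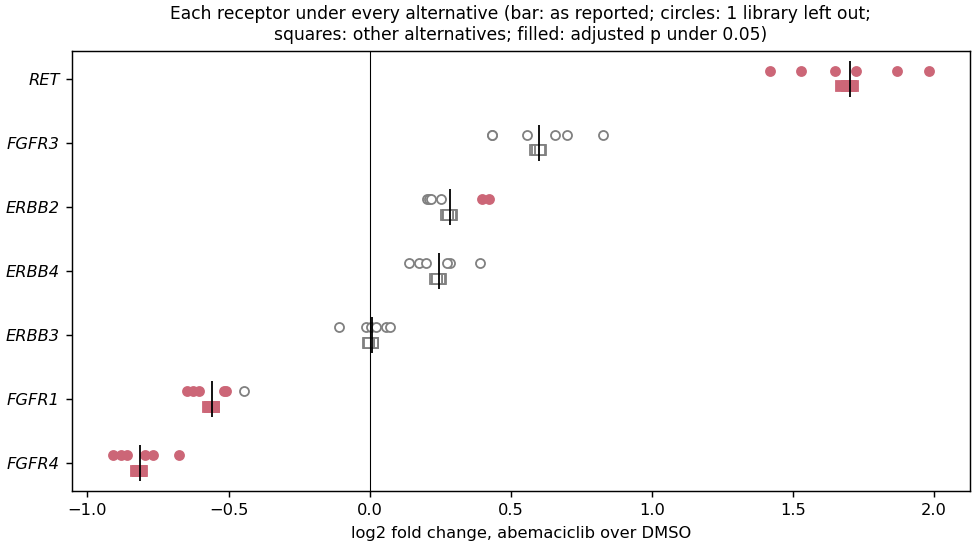
Log2 fold change of each tested receptor (horizontal axis) as reported (black bar), without 1 library (circles) and under the other alternatives (squares), filled where the adjusted P was under 0.05. RET and FGFR4 are filled throughout, FGFR1 is open in 1 fit and ERBB2 filled in 2.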

How the data were processed

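RNA was measured by 3′ mRNA sequencing (QuantSeq) in 6 libraries of parental ZR-75-1 cells, grouped by the treatment in their labels. The RB1 knockout samples were not used. The authors trimmed reads (BBDuk), aligned them (STAR 2.7.5b, hg38) and counted them per gene (featureCounts 2.0.1, GENCODE). What they deposited are raw counts, neither normalized nor filtered, and 40227 of 60656 genes were at 0 in all libraries. No source used here states a strand setting. The study describes the libraries of a group as independent biological replicates of 1 experiment, so P values cover the spread within that experiment only.

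Treatment was the only term of the model, fitted with edgeR 4.0.16 under R 4.3.3 (filterByExpr, TMM, glmQLFit, glmQLFTest, Benjamini–Hochberg over 10863 genes, two-sided). The SE is the size of the log2 fold change over the square root of F. The biological coefficient of variation was 13.2%. TMM factors enter all CPM values, and an SD is that of 3 libraries. The fits were tested on simulated data. Alternatives were DESeq2 1.42.0, its size factors, total counts only, no filter on low counts, at least 10 counts in every library, a replicate block and each library left out. Leaving out abemaciclib replicate 3 was among these, and the reason to look at it was seen in the data.

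The receptors and lists were chosen with earlier results of these data known. From each list the rule named up to 3 called genes with the largest rise and 3 with the largest fall, and for each called receptor the 3 genes most like it (0.5 CPM added before the log). Genes beyond this rule were picked with their values in view. Coordinates and 3′ ends come from GENCODE v44 on GRCh38, a later release than that of the counts. Promoters come from RefSeq on GRCh38.p14. A few items are not reported here.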

Additional observations from a re-analysis of the deposited data

How the results depend on the processing

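Under the alternatives, 76 of 84 fold changes of receptors kept their direction and side of the threshold. Of 405 fold changes of the other named genes that were run, 348 did so, 53 lost a call and 4 gained one. Named genes whose fold changes were not run include GPC1, SDC4, DDR1 and the cell type markers. Of 288 counts of called genes, 254 stayed within 1.5-fold of the reported count. These include counts of 0 that could hardly move, as for FGF ligands, of which 0 had enough counts for the test. All 64 family sums and shares moved by less than the SD between libraries. Leaving out 1 of 3 libraries cannot move a share by more than that SD, and can hardly move a sum by more. This outcome was therefore mostly fixed in advance and is no measure of stability. The called receptors were 1 higher and 2 lower in the fits other than those without 1 library. Without 1 library they ranged from 1 to 2 higher, the second being ERBB2, and from 1 to 2 lower. The log2 fold change of ERBB2 ranged from 0.20 to 0.42, and that of FGFR1 from −0.65 to −0.45. ERBB3 turned to −0.0069 with total counts only, −0.0008 with at least 10 counts in every library and −0.0016 with the replicate block, and ranged from −0.11 to 0.0709 without 1 library.

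Without 1 library, counts of called genes ranged from 0 to 1 for ERBB ligands higher and from 0 to 1 for ERBB ligands lower. They ranged from 1 to 2 for MET and RET ligands lower, 2 to 4 for ligand processing higher, 1 to 2 for adaptors and RAS higher and 1 to 3 lower. They ranged from 2 to 5 for negative regulators higher, 0 to 1 for ERBB2 neighbours higher, 1 to 2 for FGFR1 neighbours lower and 2 to 5 for other receptor tyrosine kinases higher. With DESeq2, other receptor tyrosine kinases higher were 2. Adaptors and RAS lower were 1 with DESeq2, with no filter on low counts and with the replicate block. FGFR1 neighbours lower were 1 with DESeq2, with its size factors in edgeR, with no filter and with the replicate block.

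Same-numbered libraries did not deviate together (correlations of −0.0434, 0.00705 and −0.0893), so the numbers were not taken to pair them. With the replicate block, 1139 genes were higher and 1280 lower, against 1354 and 1442 without it, and the calls of the receptors were the same. With counts of 37 or fewer in 4 of 6 libraries, RET rests on the fewest counts of the called receptors. EGFR, MET and FGFR2 fell below the filter on low counts and were tested only with no filter.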

Other observations

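A few genes of the lists above were removed by the filter on low counts and had uneven counts. EPHA4, an ephrin receptor, had 5, 15 and 20 counts with DMSO and 3, 0 and 1 with abemaciclib. With no filter it passed edgeR's test (adjusted P = 0.00294). EPHA7 had 3, 16 and 19 counts with DMSO and 0, 0 and 8 with abemaciclib (adjusted P = 0.0305 with no filter). PTPRJ, a phosphatase that acts on receptor tyrosine kinases, had 10, 5 and 1 counts with DMSO and 19, 31 and 7 with abemaciclib (adjusted P = 0.0398 with no filter). All 3 were picked with their values in view, and the groups overlap for EPHA7 and PTPRJ.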
